A study of Mus musculus with 24 samples.

Results

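The genes described here are 10 members of the TNF receptor superfamily and its ligands in conventional CD4+ T cells. 6 are receptors (Tnfrsf4, Tnfrsf9, Tnfrsf18, Tnfrsf1b, Tnfrsf8 and Cd27) and 4 are ligands (Tnfsf8, Tnfsf11, Tnfsf14 and Cd40lg). They were taken by gene symbol, matched to Ensembl identifiers with a mouse annotation, from a table of 55414 genes. 10566 genes in the table passed the filter on low counts, and 9 of the 10 members were among them. Cd40lg did not pass.

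The study asked how activation changes gene expression in T cells of mice that carry 1 of 2 mitochondrial DNA haplotypes. The cells, labelled TE and named Tconv CD4+ (CD4+ CD25-) by the study, were taken from spleen with magnetic beads. Wild-type mice (mtDNA B6) and NZB mice (mtDNA NZB) share the C57BL/6J nuclear genome, so the NZB mice are conplastic and differ in mitochondrial DNA. Cells of each haplotype were either resting (RES) or activated (ACT) with CD3/CD28 beads and IL-2 for 72 h, with 6 libraries in each of the 4 groups. The study used males of 2 to 3 months for most of its experiments, without naming these libraries. How long the resting cells were in culture is not given in the sources used here. The study states that isolated T cells were split into resting and activated groups. Some numbers in the library descriptions occur in both states of a haplotype. Whether such libraries share a mouse is not stated, and the main tests did not pair them. Nothing in the labels says that every library came from a separate mouse, so the p-values measure the spread between libraries, part of which may be technical.

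Receptors of this family are surface proteins that bind trimeric ligands and pass the signal to TRAF adaptors, which feed the canonical and noncanonical NF-kB pathways. In T cells several of them, among them OX40, 4-1BB and GITR, act as costimulatory receptors that are induced after the antigen receptor is engaged. Regulatory T cells carry OX40, GITR and TNFR2 at high levels without further stimulation. The ligands are made by antigen-presenting cells and by activated T cells themselves.

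Expression was measured by bulk MARS-seq, which counts unique molecular identifiers (UMIs) at the 3′ end of transcripts. Values are given as CPM, each library's UMI counts relative to its total, scaled between libraries by the TMM method. Libraries held 641467 to 6449395 UMI counts, apart from mtDNA NZB resting replicate 2, which held 51409. A single count there equals 16.9 CPM, so its value for a low gene is coarse, and ranges for the mtDNA NZB resting group are given below over the other 5 libraries, with replicate 2 stated where it is far from them. All fold changes and tests were computed on all 24 libraries unless stated otherwise, with edgeR's quasi-likelihood test and Benjamini-Hochberg adjustment over 10566 genes, and a gene was called at an adjusted p of at most 0.05. As a check of the activation labels, Il2ra, which encodes CD25, lay between 1.37 and 5.71 CPM in the resting libraries and between 42.0 and 179.7 CPM in the activated ones. mtDNA NZB resting replicate 2 held 0 counts of it. The cells were isolated as CD25-, so a low resting level may in part follow from the isolation. Il2ra is 1 of 6 listed T cell activation markers, whose calls went in both directions. Their sum was 136.3 to 271.6 CPM at rest and 275.0 to 457.7 CPM activated in mtDNA B6. In mtDNA NZB it overlapped, at 205.5 to 301.9 and 233.6 to 530.7 CPM.

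The isolated cells were not free of other cell types. Summed B cell markers ranged from 5724 to 15998 CPM in resting libraries, with mtDNA NZB resting replicate 2 at 17480 CPM. In activated libraries they ranged from 1121 to 6291 CPM. Of the 7 B cell markers Ighm was called lower on activation in both haplotypes and the other 6 were not called, with a list median log2 fold change of 0.17 in mtDNA B6 and -0.26 in mtDNA NZB. All 8 myeloid, all 10 granulocyte and all 7 erythroid markers fell on activation in both haplotypes, and both CD8 markers rose. T cell identity markers summed to between 4753 and 9085 CPM in every library. In bulk RNA, fewer cells of a type and less RNA per cell cannot be told apart.

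6 of the members lie on chromosome 4 of GRCm39. Tnfrsf4 (chr4:156098293-156101069, plus strand) and Tnfrsf18 (chr4:156110621-156113352, plus strand) are neighbours, as are Tnfrsf1b (chr4:144938938-144973477) and Tnfrsf8 (chr4:144993707-145041734) on the minus strand. Tnfrsf9 lies at chr4:150999019-151030559 and Tnfsf8 at chr4:63749542-63779592. Cd27 (chr6:125209585-125213988), Tnfsf11 (chr14:78514885-78545490), Tnfsf14 (chr17:57496451-57501177) and Cd40lg (chrX:56257405-56269902) lie elsewhere. Within 1000 bases of its 3′ end, Cd27 overlaps Vamp1, and Tnfrsf4 and Tnfrsf18 overlap the noncoding RNA Gm16008, each on the opposite strand. The sources do not say whether counting used the strand, so these 3 genes' counts are uncertain to that extent.

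Promoter windows of RefSeq (build GRCm38.p6, 250 bases before to 50 after a start) were at hand for 9 members, in 10 windows. 2 motifs of factors activated downstream of the T cell receptor were searched on both strands, an NF-kB type written GGGANTTCC and an AP-1 type written TGANTCA. The NF-kB type occurred in 1 of the 10 windows, against 1.68% of 32851 windows of the same length, and the AP-1 type in 3 of 10, against 7.81%. The second start of Tnfrsf9, an activation-induced receptor, held both, 42 and 15 bases before the start, and Tnfrsf8 and Tnfsf14 held the AP-1 type 132 and 160 bases before theirs. The matches are shown 5′ to 3′ on the gene's strand, with the motif in capitals. They describe the letters in these windows and do not show binding.

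Tnfrsf9 NF-kB type, chr4:150927947-150927975: agagcagctgGGGATTTCCcaggaggccc
Tnfrsf9 AP-1 type, chr4:150927974-150928000: cctgctcagtTGAGTCAcaggtcctgt
Tnfrsf8 AP-1 type, chr4:145315280-145315306: tggctagcccTGAGTCAtctctgcacg
Tnfsf14 AP-1 type, chr17:57194325-57194351: ccatcccaccTGAGTCAcattttctgg

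On activation, most of the receptors rose and the ligands were divided. In mtDNA B6 cells 6 of the 9 tested members were called higher (Tnfrsf4, Tnfrsf9, Tnfrsf18, Tnfrsf8, Cd27 and Tnfsf8), where 22.4% of all genes tested were, and 2 were called lower (Tnfsf11 and Tnfsf14), where 24.5% were. In mtDNA NZB cells 5 were called higher (Tnfrsf4, Tnfrsf9, Tnfrsf18, Tnfrsf8 and Tnfsf8), against 25.2% of all genes, and 2 lower (Tnfrsf1b and Tnfsf14), against 28.4%. The median log2 fold change of the 9 members was 0.70 in mtDNA B6 and 0.78 in mtDNA NZB, beside -0.03 and -0.06 over all genes. With a fold change of at least 2 also required (a log2 size of 1), 4 members were called in mtDNA B6 and 5 in mtDNA NZB. Whether the libraries of 2 groups overlap is given gene by gene below. The share of all genes tested without such overlap was not computed, so separate groups do not mark out a gene. Reads per UMI divide the libraries into 3 sets of 8, which fall unevenly over the groups. Set 1 held 5 activated and 0 resting mtDNA B6 libraries. With the set as a term the mtDNA B6 calls fell from 8 to 5, all higher, and the 3 lost were Tnfsf8, Tnfsf11 and Tnfsf14.

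**Figure D1:**
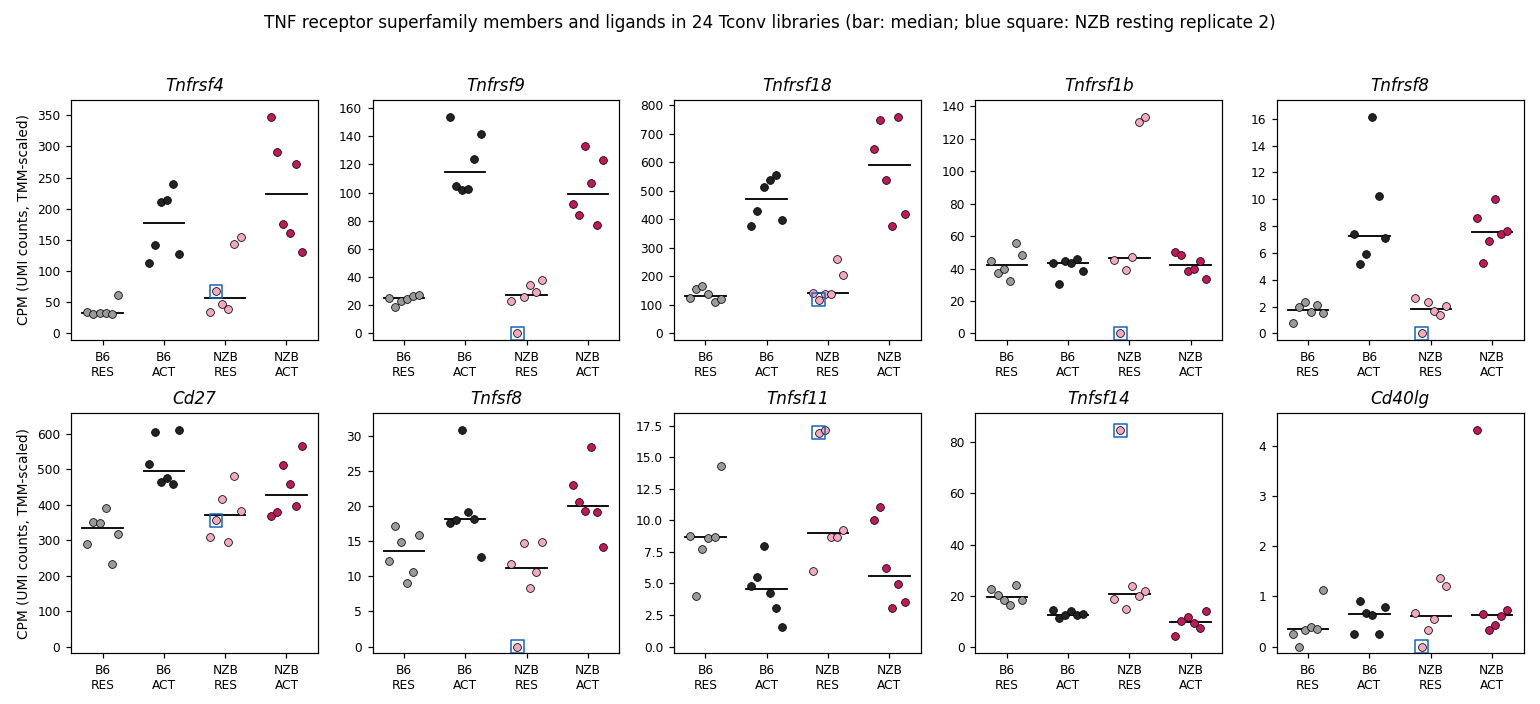
CPM of each of the 10 genes (vertical axis, scaled UMI counts, own scale per gene) in 24 libraries by group (horizontal axis). Points are libraries, bars are group medians, and blue squares mark mtDNA NZB resting replicate 2. Resting and activated libraries are separate for Tnfrsf9, Tnfrsf18, Tnfrsf8 and Tnfsf14 in both haplotypes, and 2 mtDNA NZB resting libraries are high for Tnfrsf4, Tnfrsf18 and Tnfrsf1b. The share of all genes tested with separate states was not computed.

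Tnfrsf9 encodes 4-1BB, a costimulatory receptor of activated T cells. In mtDNA B6 its level was 18.5 to 27.5 CPM at rest (median 24.9) and 102.1 to 153.5 CPM after activation (median 114.4). In mtDNA NZB it was 23.4 to 37.7 CPM at rest (median 29.3) and 77.1 to 133.5 CPM after activation (median 99.4), with replicate 2 at rest at 0. Every activated library was thus above every resting library in both haplotypes. The gene rose 4.98-fold in mtDNA B6 (log2 fold change 2.32 ± 0.17 SE, edgeR adjusted p = 5.53e-11) and 3.49-fold in mtDNA NZB (1.81 ± 0.18, adjusted p = 7.93e-09), and stayed called in all 34 alternative fits of each comparison.

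Tnfrsf8 encodes CD30, a receptor found on a subset of activated lymphocytes, and its counts were low. It ranged from 0.748 to 2.36 CPM at rest in mtDNA B6 (3 to 12 counts a library) and from 5.20 to 16.1 CPM after activation. The mtDNA NZB libraries ranged from 1.37 to 2.67 CPM at rest and from 5.22 to 10.02 CPM after activation, so the states did not overlap in either haplotype. It rose by 2.33 ± 0.29 on the log2 scale in mtDNA B6 (edgeR adjusted p = 4.76e-07) and by 1.87 ± 0.32 in mtDNA NZB (adjusted p = 2.45e-05).

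Tnfrsf18 encodes GITR, which is held by regulatory T cells and induced on others. In mtDNA B6 it ran from 109.7 to 167.3 CPM at rest and from 375.8 to 553.3 CPM when activated. In mtDNA NZB it ran from 138.0 to 260.8 CPM at rest and from 377.8 to 756.8 CPM when activated. The states were again separate in both haplotypes, with log2 fold changes of 1.79 ± 0.19 (edgeR adjusted p = 3.27e-08) and 1.75 ± 0.19 (adjusted p = 5.36e-08). The difference of the responses was -0.04 on the log2 scale (95% interval -0.59 to 0.50).

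Tnfrsf4 encodes OX40, a costimulatory receptor of CD4+ T cells and regulatory T cells. Resting mtDNA B6 libraries held 30.8 to 61.7 CPM (median 32.8) and activated ones 112.3 to 239.8 CPM (median 176.4). In mtDNA NZB the resting libraries held 34.4 to 155.4 CPM (median 47.0) and the activated ones 130.8 to 346.5 CPM (median 223.8). States did not overlap in mtDNA B6 but did in mtDNA NZB, where resting replicates 5 and 6, at 143.0 and 155.4 CPM, lay above activated replicate 6. The rise was 4.70-fold in mtDNA B6 (log2 2.23 ± 0.34, edgeR adjusted p = 7.85e-06) and 2.75-fold in mtDNA NZB (log2 1.46 ± 0.34, adjusted p = 0.000862). Without resting replicates 5 and 6, an alternative chosen after the data were seen, the mtDNA NZB log2 fold change was 2.52.

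Cd27 encodes a receptor that resting T cells already carry and that binds CD70. It ranged from 231.7 to 389.2 CPM at rest in mtDNA B6 and from 459.1 to 609.0 CPM after activation, without overlap, a rise of 1.62-fold (log2 0.70 ± 0.14, edgeR adjusted p = 0.000212). The mtDNA NZB groups overlapped, with 294.9 to 480.3 CPM at rest and 368.1 to 566.0 CPM when activated, and the change was not called (log2 0.25 ± 0.14, edgeR adjusted p = 0.134). It was called when resting replicate 5 was left out (0.35, edgeR adjusted p = 0.0453), when replicates 5 and 6 were both left out (0.44, adjusted p = 0.0196) and with the description number of the libraries as a replicate block (0.44, adjusted p = 0.0218). The difference between the haplotypes' responses, -0.44 ± 0.20, was not called either (edgeR adjusted p = 0.318).

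Tnfrsf1b encodes TNFR2, the TNF receptor of T cells and in particular of regulatory T cells. It was not called on activation in mtDNA B6, with 32.1 to 56.0 CPM at rest, 30.6 to 46.1 CPM after it and a log2 difference of -0.06 (95% interval -0.61 to 0.48). In mtDNA NZB it was called lower, with a log2 fold change of -0.85 ± 0.27 (edgeR adjusted p = 0.0113). The resting mtDNA NZB libraries 1, 3 and 4 held 45.4, 39.0 and 47.0 CPM, replicate 2 held 0 counts, and replicates 5 and 6 held 130.6 and 133.3 CPM, while the activated libraries lay between 33.9 and 50.3 CPM. The fall therefore rested on replicates 5 and 6. It was not called without replicate 5 (-0.59, edgeR adjusted p = 0.0618), nor without replicate 6 (-0.57, adjusted p = 0.0648), and without both the log2 fold change was 0.03 (adjusted p = 0.929).

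Among the ligands, Tnfsf14 (LIGHT, which binds HVEM and the lymphotoxin beta receptor) fell in both haplotypes. It held 16.4 to 24.1 CPM at rest and 11.3 to 14.3 CPM when activated in mtDNA B6, and 14.8 to 23.8 and 4.31 to 13.8 CPM in mtDNA NZB, where resting replicate 2 stood at 84.7 CPM from 5 counts. No activated library reached the lowest resting library of its haplotype. The log2 fold changes were -0.65 ± 0.20 (edgeR adjusted p = 0.0107) and -1.08 ± 0.22 (adjusted p = 0.00025). The mtDNA B6 call was lost with DESeq2 (DESeq2 adjusted p = 0.05003) and with a second deposited count table (edgeR adjusted p = 0.179). It was also lost with the library set as a term (edgeR adjusted p = 0.0982). The mtDNA NZB call was kept in all 34 alternative fits.

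Tnfsf8, the CD30 ligand, was called higher in both haplotypes with overlapping groups. Its levels were 9.01 to 17.2 CPM at rest and 12.7 to 30.7 CPM when activated in mtDNA B6, and 8.40 to 14.9 and 14.2 to 28.3 CPM in mtDNA NZB. Its log2 fold changes were 0.55 ± 0.21 (edgeR adjusted p = 0.0343) and 0.78 ± 0.23 (adjusted p = 0.00565). The mtDNA B6 call was lost without activated replicate 3 (0.38, edgeR adjusted p = 0.134), and also without resting replicates 1, 4 or 5. It was lost with DESeq2 too (DESeq2 adjusted p = 0.0831). With the description number of the libraries as a replicate block Tnfsf8 was called in neither haplotype (edgeR adjusted p = 0.149 in mtDNA B6 and 0.111 in mtDNA NZB).

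Tnfsf11 encodes RANKL, known from bone resorption and from T cell help to dendritic cells, and was near the lower limit of the counts. It held 3.97 to 14.3 CPM at rest and 1.58 to 7.93 CPM when activated in mtDNA B6, and 6.01 to 17.1 and 3.05 to 11.1 CPM in mtDNA NZB, so the groups overlapped. The fall was called in mtDNA B6 (log2 -0.92 ± 0.34, edgeR adjusted p = 0.0294) and not in mtDNA NZB (-0.73 ± 0.36, adjusted p = 0.0907). In mtDNA B6 it was not called without resting replicate 6 (-0.70, edgeR adjusted p = 0.109) or without activated replicate 4, 5 or 6. DESeq2 did not call it in mtDNA B6 either (DESeq2 adjusted p = 0.0638). In mtDNA NZB it was called without activated replicate 2 (-1.02, edgeR adjusted p = 0.0234).

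Cd40lg, the CD40 ligand by which CD4+ T cells help B cells, held 0 to 5 counts in each library and could not be tested. Its highest level, 4.31 CPM in mtDNA NZB activated replicate 1, came from 3 counts.

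**Figure D2:**
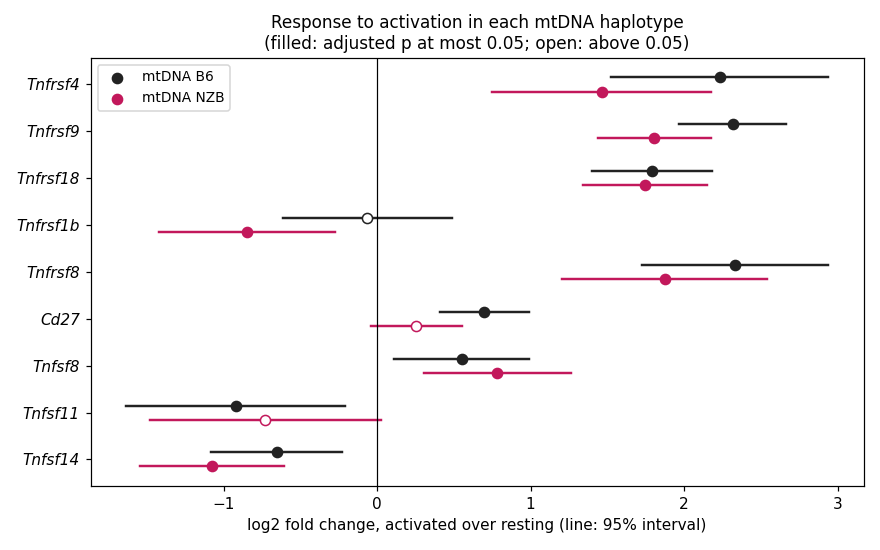
Log2 fold change of activated over resting cells (horizontal axis) for the 9 genes tested, in mtDNA B6 (black) and mtDNA NZB (pink), with 95% intervals from the fit and filled points for an adjusted p of at most 0.05. The intervals of both haplotypes overlap for each gene, and Tnfrsf1b is the gene whose point lies near 0 in mtDNA B6 and at -0.85 in mtDNA NZB.

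The responses of the haplotypes were then compared directly. No member was called in the test of the difference (edgeR), where 0% of all genes were called and 1512 had an unadjusted p under 0.05. The estimates, as the mtDNA NZB response minus the mtDNA B6 response, were -0.77 ± 0.47 for Tnfrsf4, -0.51 ± 0.24 for Tnfrsf9 and -0.78 ± 0.38 for Tnfrsf1b on the log2 scale. Their adjusted p-values were 0.459, 0.3304 and 0.349. DESeq2 called no member in this comparison either. Without resting replicates 5 and 6 of mtDNA NZB the estimates for Tnfrsf4 and Tnfrsf1b were 0.24 and 0.05.

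In activated cells no member differed between haplotypes by either tool. The edgeR fit called 0% of all genes, with 327 at an unadjusted p under 0.05. The member log2 differences, mtDNA NZB over mtDNA B6, ran from -0.36 for Tnfsf14 to 0.41 for Tnfsf11. The 95% intervals reached 1.05 for Tnfrsf4 and 1.17 for Tnfsf11, so differences of up to that size in those genes lay within the intervals.

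At rest 0 of the 9 members were called between haplotypes, where 2.76% of all genes tested were. The largest estimates were those of Tnfrsf4, 1.15 ± 0.35 on the log2 scale and 2.22-fold higher in mtDNA NZB (edgeR adjusted p = 0.0637), and Tnfrsf1b, 0.81 ± 0.27 and 1.75-fold higher (adjusted p = 0.0863). Both were called when resting replicate 1, 3 or 4 of mtDNA NZB was left out. Without replicates 5 and 6 they were 0.12 and -0.05. Tnfrsf18 followed the same libraries, with 260.8 CPM in replicate 5 and 204.8 CPM in replicate 6 against at most 167.3 CPM in mtDNA B6.

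Replicates 5 and 6 were the 2 highest of the 12 resting libraries for 3 of the 9 members tested, and for 15.0% of all genes tested. In the same libraries the Treg marker sum was 63.7 and 84.7 CPM, against 47.4 to 58.1 CPM in the other mtDNA NZB resting libraries, and Foxp3 itself was 14.2 and 15.7 CPM, within the 9.79 to 18.0 CPM of resting mtDNA B6. mtDNA B6 resting replicate 6, which had the highest Tnfrsf4 level of its group at 61.7 CPM, had the highest Treg marker sum of it, 77.1 CPM. Tnfrsf18 in that library was low in its group, at 118.9 CPM in a range of 109.7 to 167.3 CPM, and Foxp3 was 17.7 CPM. Replicate 6 of mtDNA NZB held 21022 CPM of granulocyte markers and replicate 5 held 437.7 CPM, the highest and lowest of the 12. Both belonged to the set of libraries with the most reads per UMI. Among resting libraries, mtDNA NZB replicates 2 and 4 and mtDNA B6 replicates 5 and 6 did so too. With the set as a term the resting difference was 0.96 for Tnfrsf4 and 0.65 for Tnfrsf1b. The part of these in the result was not tested.

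**Figure D3:**
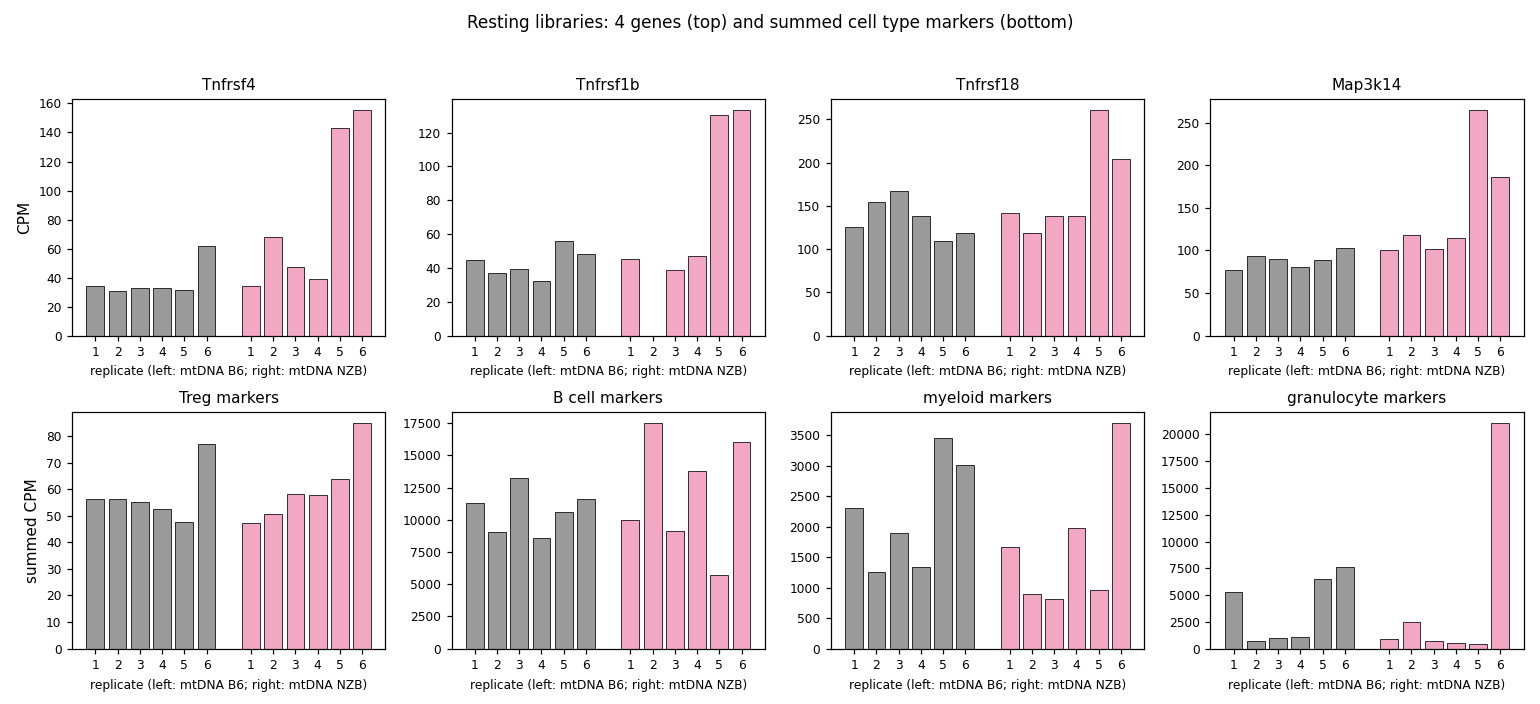
Bars give CPM of Tnfrsf4, Tnfrsf1b, Tnfrsf18 and Map3k14 (top) and summed CPM of 4 lists of cell type markers (bottom) in the 12 resting libraries, by replicate, mtDNA B6 in grey and mtDNA NZB in pink. Replicates 5 and 6 of mtDNA NZB are highest for all 4 genes, while granulocyte markers are high in replicate 6 and low in replicate 5.

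Activated libraries also varied among themselves. In mtDNA NZB, replicates 1, 2 and 5 held 346.5, 291.3 and 271.9 CPM of Tnfrsf4 and 644.2 to 756.8 CPM of Tnfrsf18, and replicates 3, 4 and 6 held 175.7, 160.8 and 130.8 CPM of Tnfrsf4 and 377.8 to 537.9 CPM of Tnfrsf18. Summed B cell markers in these libraries were 1347, 1121 and 1833 CPM in replicates 1, 2 and 5 and 3860, 5203 and 6115 CPM in replicates 3, 4 and 6. Treg markers summed to 168, 159 and 100.02 CPM in the former and to 46.5, 71.0 and 57.6 CPM in the latter. Replicates 1, 2 and 5 also had the 3 lowest sums of the group for CD8, NK, Tfh and platelet markers and the 3 highest for T cell activation markers. CD8 markers, for example, summed to 82.0 to 124.2 CPM in them and to 204.8 to 533.6 CPM in replicates 3, 4 and 6.

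The mtDNA B6 activated libraries divided in the same way for both receptors and for the B cell and Treg sums. Replicates 3, 4 and 5 held 210.8, 213.2 and 239.8 CPM of Tnfrsf4 with 2442, 3496 and 3060 CPM of B cell markers, and replicates 1, 2 and 6 held 112.3, 142.0 and 126.8 CPM with 6291, 5362 and 4198 CPM. Tnfrsf18 was at 513.2 to 553.3 CPM in the former and at 375.8 to 428.0 CPM in the latter, and Treg markers summed to 79.9 to 91.9 CPM and to 45.6 to 68.9 CPM. Il2ra, which regulatory T cells and activated cells both carry, was 138.0, 179.7 and 171.5 CPM in mtDNA NZB replicates 1, 2 and 5 and at most 65.4 CPM in its other activated libraries. Other members did not follow this division. Cd27 ran the other way, at 368.1 to 397.0 CPM in mtDNA NZB replicates 1, 2 and 5 and 458.4 to 566.0 CPM in replicates 3, 4 and 6. In mtDNA B6 it was at 459.1 to 473.6 CPM in replicates 3, 4 and 5 and 514.8 to 609.0 CPM in replicates 1, 2 and 6. Tnfrsf9 was at 77.1 to 92.0 against 106.7 to 133.5 CPM in mtDNA NZB, and overlapped in mtDNA B6. The part of these markers in the members' levels was not tested.

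**Figure D4:**
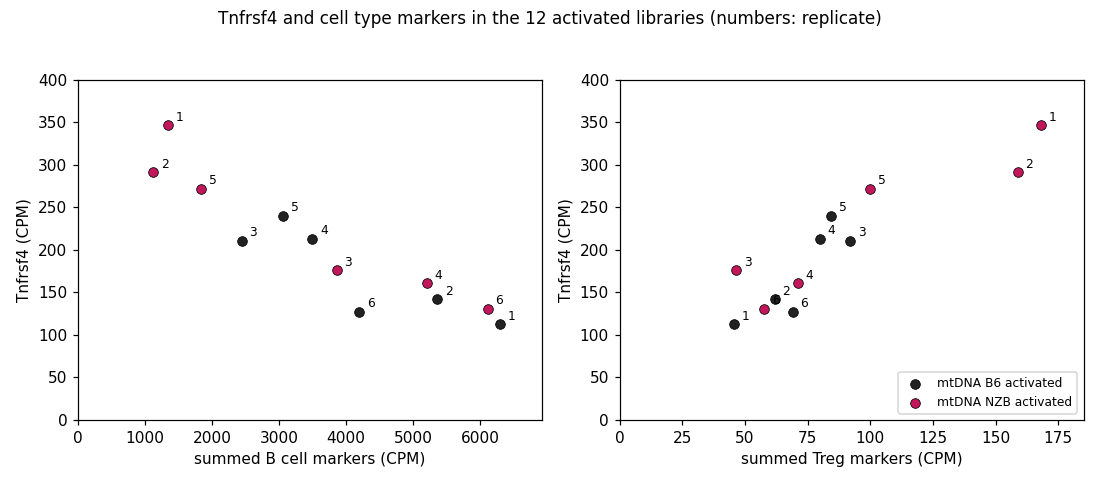
Tnfrsf4 level (vertical axis, CPM) against the summed B cell markers (left) and Treg markers (right) in the 12 activated libraries, numbered by replicate, mtDNA B6 in black and mtDNA NZB in pink. mtDNA NZB replicates 1, 2 and 5, at 271.9 CPM or more of Tnfrsf4, have the 3 lowest B cell and the 3 highest Treg marker sums.

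Across all 23 libraries other than mtDNA NZB resting replicate 2, Tnfrsf4 and its neighbour Tnfrsf18 had a Pearson correlation of log2 CPM of 0.93, and of 0.74 once group means were removed. Tnfrsf4 and Tnfrsf1b had 0.18 and 0.83, the latter with mtDNA NZB resting replicates 5 and 6 among the points. Some pairs that ran together over all libraries did not do so within groups. Tnfrsf9 had 0.87 and -0.41 with Tnfrsf18, 0.81 and -0.07 with Tnfrsf4, and 0.89 and -0.14 with Tnfrsf8. These are descriptions over libraries that share group, depth and cell makeup. The genes whose levels ran most like each member over the 23 libraries were Mthfd2 for Tnfrsf4 (r = 0.98), Tg for Tnfrsf9 (0.97), Atp10a for Tnfrsf18 (0.97), Stat5a for Tnfrsf1b (0.93), Aldoa for Tnfrsf8 (0.94) and Frmd4a for Tnfsf14 (0.92). For Cd27, Tnfsf8 and Tnfsf11 the highest values were lower, 0.86 with Mir142hg, 0.85 with Arhgdib and 0.79 with Tfap4. The genes next most alike were Anp32e, Cacnb3, Jpt1, Ythdf1, Glipr2, S1pr4, Decr2, Dapk1 and Rbpms, with r from 0.76 for Dapk1 and Tnfsf11 to 0.97 for Jpt1 and Tnfrsf18.

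The counts of the members' binding partners were mostly low in these libraries. Only 3′ ends were counted, so a low count does not by itself show that a gene is scarce in the cells. Tnfsf4 (OX40 ligand) held at most 7 counts a library, Cd70 (CD27 ligand) at most 8, Tnfrsf11a (RANK) at most 3, Tnfrsf11b (osteoprotegerin) at most 2 and Tnfrsf14 (HVEM) at most 9. Tnfsf18, the GITR ligand, had 0 counts in all 24 libraries, and a count of 0 allows up to 3 counts, equal to 0.44 to 4.31 CPM outside mtDNA NZB resting replicate 2. Tnfsf9, the 4-1BB ligand, was measured at 6.72 to 15.9 CPM in the other 23 libraries and was not called on activation, with log2 fold changes of -0.19 and -0.12. Cd40 was not called in either haplotype (0.41 in mtDNA B6).

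Both ligands of TNFR2 were called in 1 haplotype each, and the difference between the haplotypes was called for neither. Tnf fell in mtDNA B6 from a median of 37.3 to 19.2 CPM (log2 -1.08 ± 0.26, edgeR adjusted p = 0.00133) and was -0.31 in mtDNA NZB, not called. Lta, which encodes lymphotoxin alpha, rose in mtDNA NZB from a median of 47.6 to 198.2 CPM (log2 2.46 ± 0.55, edgeR adjusted p = 0.000516) and was 1.07 in mtDNA B6, not called. The resting mtDNA NZB median of Lta includes replicate 2, at 0 counts, and the other 5 libraries held 22.5 to 62.8 CPM. The mtDNA NZB activated values of Lta were 523.4, 527.8 and 325.7 CPM in replicates 1, 2 and 5 and 41.3 to 70.6 CPM in the others. Ltbr, the lymphotoxin beta receptor and a receptor of Tnfsf14, fell in both haplotypes (log2 -3.01 in mtDNA B6 and -3.31 in mtDNA NZB).

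Among 22 other receptors of the superfamily, of which 15 were tested, 2 were called higher and 8 lower on activation in mtDNA B6, and 0 and 8 in mtDNA NZB. The shares over all genes tested were 22.4% higher and 24.5% lower in mtDNA B6 and 25.2% and 28.4% in mtDNA NZB, and they apply to each list that follows. Both higher calls in mtDNA B6 were lost with DESeq2 (0 higher, 8 lower) and with the library set as a term (0 higher, 6 lower). The largest falls called in both haplotypes were those of Tnfrsf17 (BCMA of plasma cells, log2 -5.54 and -5.18), Ltbr and Tnfrsf12a (Fn14, -2.98 and -3.05). Of 14 other ligands 7 were tested, with 0 higher and 2 lower in mtDNA B6 and 1 and 2 in mtDNA NZB, and Tnfsf12 (TWEAK) fell in both (-2.24 and -2.26). The myeloid, granulocyte and erythroid markers and Ighm fell in the same comparisons, as given above, and their part in these falls was not tested. The median of the 15 tested receptors was -0.56 in mtDNA B6 and -1.14 in mtDNA NZB, beside 2.01 in mtDNA B6 for the 6 receptors described first.

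Downstream of the receptors, 25 of 27 listed TRAF adaptors and receptor-proximal genes were tested. 7 rose and 4 fell in mtDNA B6, and 3 rose and 10 fell in mtDNA NZB. In mtDNA B6 neither direction stands far from the shares over all genes. Tnfaip3, the A20 inhibitor of NF-kB, fell most, from a median of 551.7 to 32.7 CPM in mtDNA B6 and from 752.4 to 29.0 CPM in mtDNA NZB (log2 -4.11 and -4.64), followed by Map3k14 (NIK, -0.99 and -1.77) and Tnip1 (-0.48 and -1.23). The largest rises called in both were those of Map3k5 (ASK1, 0.50 and 0.39), Tradd (0.34 and 0.47) and Rbck1 (HOIL-1, 0.24 and 0.47). The mtDNA B6 count of 11 ranged from 5, with the library set as a term, to 16, with only the compared groups in the fit. It was 6 or 7 without activated replicate 3, 4, 5 or 6 or resting replicate 1 or 5. The mtDNA NZB count of 13 ranged from 7, with the description number as a replicate block, to 14. Without mtDNA NZB resting replicates 5 and 6 it was made up of 4 higher and 8 lower.

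All 14 listed NF-kB kinases, subunits and inhibitors were tested, with 2 higher and 6 lower in mtDNA B6 and 1 and 10 in mtDNA NZB. Of this list, Nfkbiz (log2 -2.34 and -2.49), Nfkbid (-1.81 and -2.62) and Nfkbia (-1.96 and -1.90) fell most, and Bcl3 rose (1.40 and 1.00). The list medians were -0.30 and -0.70, beside -0.03 and -0.06 over all genes.

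**Figure D5:**
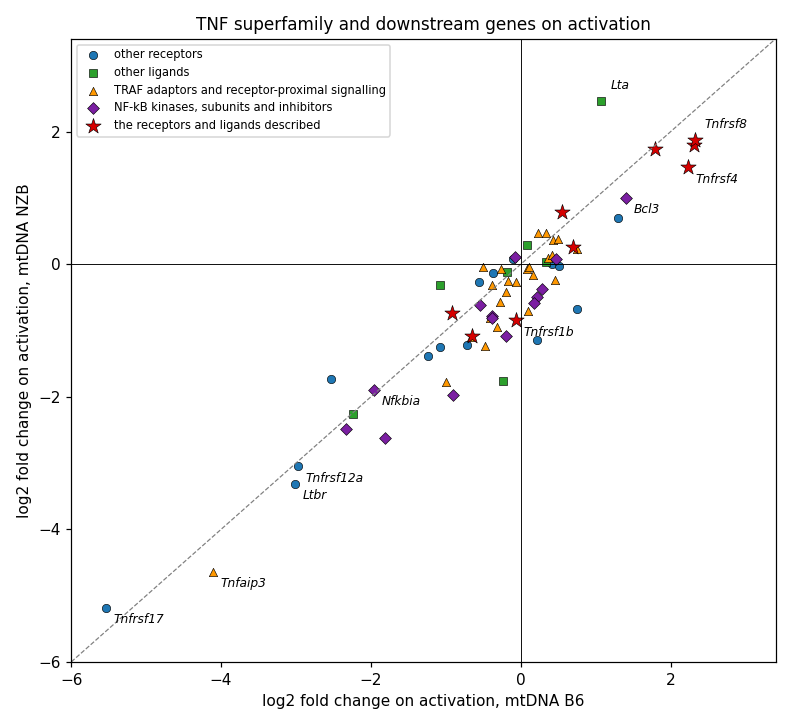
Log2 fold change on activation in mtDNA B6 (horizontal axis) against mtDNA NZB (vertical axis) for the 9 genes described first (red stars) and for the tested genes of 4 wider lists (other symbols), with a dashed line of equal change. 4 red stars lie at log2 fold changes of 1.46 or more on both axes, and Tnfrsf17 and Tnfaip3 lie below -4 on both.

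At rest 9 of the 61 tested genes of these 4 lists were called higher in mtDNA NZB and 0 lower. Of all genes tested, 2.76% were called in either direction at rest. The 9 were the receptor Tnfrsf26, the ligand Fasl, the signalling genes Tab2, Map3k14, Otulin and Tnip1 and the NF-kB subunits Nfkb2, Rela and Relb. They are named here after their values were seen. For 8 of the 9, mtDNA NZB replicates 5 and 6 were the 2 highest of the 12 resting libraries. Over all genes tested that share was 15.0%, but the 9 were picked as called higher in mtDNA NZB, which favours this order. The share among all genes called at rest was not computed. Map3k14, for example, held 264.9 and 186.3 CPM in replicates 5 and 6 and 77.1 to 103.1 CPM in mtDNA B6. The other 4 mtDNA NZB libraries held 100.5 to 118.6 CPM, the highest from 7 counts in replicate 2. Fasl was the exception to this order, with 11.3 to 19.7 CPM in the mtDNA NZB libraries other than replicate 2 and 5.74 to 10.3 CPM in mtDNA B6, without overlap. Without replicates 5 and 6, 0 of the 61 tested genes of the 4 lists were called at rest by edgeR. The same count of 0 was found without mtDNA NZB resting replicate 5 alone, without mtDNA B6 resting replicate 1, 3, 4 or 5 alone, with only the compared groups in the fit and with the library set as a term. DESeq2 on all libraries called 4. When 1 library was left out, the NF-kB list ranged from 0 to 7 called genes, the highest without mtDNA NZB resting replicate 1, and the TRAF list from 0 to 5.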

How the data were processed

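RNA of 24 libraries of Tconv CD4+ cells was sequenced by bulk MARS-seq. The values are UMI counts per gene that the authors deposited after trimming with cutadapt, alignment with STAR to the last 1000 bases of GRCm39 genes, counting with HTSeq and correction for duplicate UMIs. A count restricted to the 3′ end misses changes elsewhere in a transcript. Tool versions are not given in the sources used here. A second deposited count table, taken here to be from before UMI correction although the sources do not state it, gave reads per UMI and an alternative, and 1 of its columns matched no sample and was not used.

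Genes were filtered with filterByExpr, scaled by TMM and tested with edgeR 4.0.16 (R 4.3.3), using the quasi-likelihood test over the 4 groups together with Benjamini-Hochberg adjustment over 10566 genes. Calls were made at an adjusted p of at most 0.05. SEs are the log2 fold change divided by the root of F, and log2 CPM used a prior count of 2. Medians of genes other than the members are over all 6 libraries of a group. A count of 0 allows up to 3 counts, and such limits cover counting error only.

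The members and all gene lists were chosen with earlier results of these data known. From the wider lists the text names the 3 genes with the largest change in each direction, averaged over both haplotypes, among those called in the same direction in both haplotypes, binding partners of the members, and, for each member, the 2 genes most alike by Pearson's r. Alternatives were DESeq2 1.42.0, median-of-ratios scaling, no filter, the second table, only the compared groups, replicate number as a block, library set as a term, leaving out each library and a fold threshold. Figures were drawn with matplotlib 3.10.9.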

Additional observations from a re-analysis of the deposited data

Results flagged for a closer look

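Within groups of 6 libraries, 40 groups of member values were searched for a highest or lowest library whose gap to its neighbour took up more of the group's range than Dixon's 95% critical value, and 5 were found. Chance alone sets apart about 1 in 20 groups. Tnfrsf4 stood at 61.7 CPM in mtDNA B6 resting replicate 6, where the other 5 libraries of the group lay between 30.8 and 34.2 CPM. Tnfsf8 stood at 30.7 CPM in mtDNA B6 activated replicate 3, against at most 19.1 CPM in the rest of its group. The other 3 values rest on 3 to 5 counts each. They are Tnfsf14 at 84.7 CPM in mtDNA NZB resting replicate 2, Cd40lg at 1.13 CPM in mtDNA B6 resting replicate 6 and Cd40lg at 4.31 CPM in mtDNA NZB activated replicate 1.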

How the results depend on the processing

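The 8 members called on activation in mtDNA B6 became 5 with DESeq2, 5 with the library set as a term and 4 when a log2 fold change of at least 1 was also required, and 7 to 8 when 1 library was left out. In mtDNA NZB 7 were called, and 6 to 8 without 1 library. At rest 0 became 1 without the filter on low counts and 0 to 2 without 1 library. After activation, and for the difference of the responses, 0 members were called in every alternative run. 1 called value changed sign, that of Tnfrsf1b on activation in mtDNA NZB, 0.025 without resting replicates 5 and 6, an alternative added after the data were seen. With the description number as a replicate block, 6 members were called on activation in each haplotype, and with the title number 8 in mtDNA B6 and 7 in mtDNA NZB. Deviations of libraries with the same description number correlated from -0.158 to 0.253, which does not settle whether such libraries share a mouse. The main tests did not pair those libraries. The shallow mtDNA NZB resting replicate 2 limits what low genes can show.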

Other observations

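Calls for marker lists that were not given above were as follows on activation. Of 6 T cell activation markers, 2 were called higher and 1 lower in mtDNA B6, and 2 and 2 in mtDNA NZB. Of 9 T cell identity markers, 2 were higher and 2 lower in both haplotypes. Of 6 Treg markers, 2 were higher and 2 lower in mtDNA B6, and 3 higher and 0 lower in mtDNA NZB. Of 4 tested Tfh markers 1 was lower in both haplotypes, Bcl6, and of 3 tested platelet markers 2 were higher in both. Of 3 tested NK cell markers, 2 were higher and 1 lower in mtDNA B6, and 1 and 1 in mtDNA NZB. Bcl6 is named after its values were seen.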
